A study of Drosophila melanogaster with 2 samples.

Results

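The JAK/STAT pathway components of Drosophila Kc167 cells were described in RNA-seq of control cells. The 10 members were chosen by name from the 17807 genes of the deposited table, and each was found there by its FlyBase identifier. They comprise the ligands upd1, upd2 and upd3, the receptor dome and its shorter relative et, the kinase hop, the transcription factor Stat92E, and the inhibitors Socs36E, Su(var)2-10 and Ptp61F. The measured level was not part of the rule that chose them, but earlier results of these data were known when they were chosen.

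In this pathway a secreted Unpaired cytokine binds the receptor Domeless, the bound kinase Hopscotch phosphorylates the receptor and the STAT protein, and the phosphorylated STAT dimer enters the nucleus and activates its target genes. Flies have a single JAK and a single STAT, so each step downstream of the receptor is served by 1 gene. The pathway is known for its part in embryonic segmentation, in stem cell niches and in the development and immune response of blood cells.

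Kc167 is a cell line of embryonic origin. The 2 libraries, replicates 1 and 2, are of the same condition: cells kept at 25 °C in a serum-free insect medium and, by the labels, given 2% DMSO for 1 h. In the study, DMSO was the vehicle control for triptolide, which blocks transcription and was used when protein binding at promoters was mapped. The paper used RNA-seq to show mRNA levels of promoter classes and clusters. The deposited table holds these 2 libraries only, so no conditions were compared. The labels call the libraries replicates without saying that they came from separate cultures, and their spread may therefore be technical.

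Gene counts totalled 33436865 read pairs in replicate 1 and 31721648 in replicate 2, and the 10 members together took 0.116% of them in each library. The labelled cell line was checked against marker genes. All 7 blood cell markers (srp, Pxn, Hml, NimC1, eater, vkg and Col4a1) had 10 or more counts in both libraries, with summed levels of 344 and 354 TPM (counts per gene length, scaled to a common total). Most of this sum came from the collagen genes Col4a1 and vkg, with means of 143 and 102 TPM, whereas NimC1, Pxn and eater had 1.76, 4.18 and 5.41 TPM. The 3 crystal cell markers summed to 0.585 and 0.459 TPM, the 3 muscle markers to 0.142 and 0.101, the 3 fat body markers to 0.0378 and 0.0770, and the 3 neuronal markers to 1.46 and 1.56. The 2 lamellocyte markers summed to 63.1 and 62.3 TPM and the 3 germline markers, bam, nanos and vas, to 80.3 and 81.8 TPM, with bam at 57.2 TPM, and all 5 of these genes also had 10 or more counts in both libraries. Of the other markers, 2 of 3 neuronal, 1 of 3 crystal cell, 1 of 3 muscle and 0 of 3 fat body genes reached this minimum. Over all genes in the table, 49.7% reached it, so reaching it was not particular to the blood cell markers. Of all these markers, only Yp1 of the fat body had 0 counts in both libraries. The markers were not tested for any part in the levels of the pathway genes.

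Of the 10 members, 9 had 10 or more counts in both libraries, against 49.7% of all genes in the table (8846 of 17807). The exception was upd1. The median deposited TPM was 25.1 over all 10 members, upd1 included, against 0.646 over all genes of the table and 29.8 over the genes that passed the same minimum, and 4 of the 10 members lay above 29.8. This side depends on the gene length behind TPM: with each exonic base taken once, called the exon-union length here, the median was 39.9 over the members, against 34.9 over the genes that passed, and 6 members lay above it. On the log-scaled plot of deposited TPM by library, the components other than upd1 lie between 5.25 and 104 TPM.

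**Figure D1:**
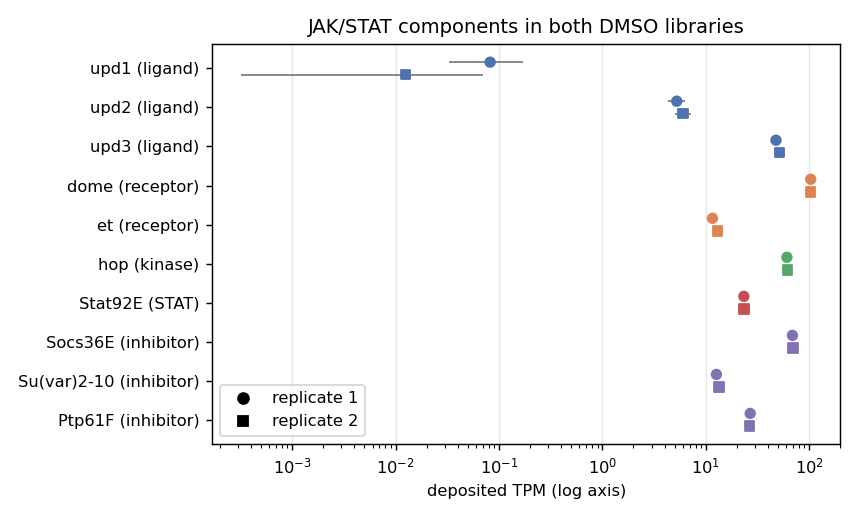
Deposited TPM (log axis) of the 10 components in replicate 1 (circles) and replicate 2 (squares), coloured by role; bars are exact 95% Poisson intervals of the counts, scaled to TPM. The dome points sit at the right, at 104 and 103 TPM, and upd1 stands apart at the left, at 0.0823 and 0.0125 TPM.

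The ligands ran from upd3, at a level below dome, Socs36E and hop, down to upd1, the lowest of all members. upd3, the cytokine that fly blood cells release on wounding and infection, had 1177 counts in replicate 1 and 1193 in replicate 2, or 47.9 and 51.8 TPM. upd2, known as a signal of nutrient state from the fat body, had 115 and 124 counts, or 5.25 and 6.04 TPM. Both genes passed the minimum, and upd3 was higher than upd2 in both libraries, by 9.12 times in replicate 1 and 8.58 times in replicate 2 in TPM. Each of them has 1 annotated transcript, so the ratio is the same whichever gene length is used.

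upd1, the founding ligand that patterns the embryonic segments, had 7 counts in replicate 1 and 1 count in replicate 2. These counts correspond to 0.0823 TPM, with a 95% interval from 0.0331 to 0.170, and to 0.0125 TPM, with an interval from 0.000317 to 0.0699, counting error only. The mean of 0.0474 TPM rests on replicate 1, and at these counts no level of upd1 can be given with any precision. In bulk RNA, a low level in all cells and a higher level in a few cells cannot be told apart, for upd1 as for any other member.

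The 3 ligand genes lie within 68638 bp of the X chromosome in BDGP6.54, the assembly behind dm6. upd2 (18240654 to 18243284, minus strand) is followed by upd3 (18277233 to 18284596, plus strand) after 33948 bp, and upd1 (18305354 to 18309291, minus strand) follows after 20757 bp more. Between them 4 other genes are annotated, CG15059 and the noncoding genes lncRNA:CR45607, lncRNA:CR45613 and lncRNA:CR15061. None of these 4 reached 10 counts, and the highest had 3 in either library. Within the cluster, upd3 and upd2 were thus the genes that passed the minimum. Upstream of upd1, lncRNA:CR45608 and lncRNA:CR45609 had 0 counts in both libraries and CG6023 had 6 and 8.

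The receptor dome, which binds the ligands and carries the kinase, had 5597 counts in replicate 1 and 5221 in replicate 2. Its level was 104 and 103 TPM, or 103 ± 0.372 (SD, n = 2), higher in deposited TPM than any other member and at the 81.4th percentile of the 8846 genes with 10 or more counts in both libraries. et, a shorter relative of dome that is known to antagonise signalling, had 615 and 645 counts, or 11.6 and 13.0 TPM. Both genes lie on the minus strand of chromosome X, et from 19672312 to 19675891 and dome from 19676061 to 19683518, with 169 bp between them. Although they are neighbours, dome exceeded et by 3.07 ± 0.12 on the log2 scale in deposited TPM (SD, n = 2).

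The size of this difference depended on the gene length. et has 2 transcripts that share nearly all their exons, and the deposited length of 4773 bases adds up both, whereas the exonic bases number 2411. With the exon-union length, dome stood at 66.0 ± 0.558 TPM and et at 15.6 ± 1.16 TPM (SD, n = 2), a log2 ratio of 2.09 ± 0.12. By this length dome lay at the 70.1st percentile of the 8795 genes that passed the minimum and have annotated exons. The order of the receptors held with each of the gene lengths used. On the other side of dome, Ubqn starts 289 bp away on the plus strand and had 12273 and 11834 counts.

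The kinase gene hop (chromosome X, 11360930 to 11368098, minus strand) had 3415 counts in replicate 1 and 3242 in replicate 2. In deposited TPM this was 61.0 and 61.8, and the libraries overlapped within counting error. hop has 1 annotated transcript of 5055 bases. Compared with the other single-transcript members, hop was below dome in both libraries, dome being 1.70 and 1.67 times higher in TPM, and above upd3, by 1.27 and 1.19 times.

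Stat92E, the transcription factor of the pathway, had more counts than any other member, 10832 in replicate 1 and 10200 in replicate 2. Its deposited level was nevertheless 23.4 and 23.5 TPM, at the 44.4th percentile of the genes that passed the minimum. The gene (chromosome 3R, 20535323 to 20552311, minus strand) has 11 annotated transcripts that start at 2 sites, 1204 bp apart. Its deposited length was 41822 bases, which is the sum of all 11 transcripts and 8.03 times its 5210 exonic bases. This ratio was larger than in 99.2% of the 8263 protein-coding genes with 10 or more counts in both libraries, where the median was 1.83. With the exon-union length, Stat92E stood at 120 ± 0.215 TPM (SD, n = 2), against 23.5 ± 0.0720 with the deposited length. That is 5.12 times higher, at the 84.8th percentile.

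The relation of STAT to kinase turned round with the length. In deposited TPM the ratio of Stat92E to hop was 0.383 in replicate 1 and 0.380 in replicate 2. With the exon-union length it was 3.08 and 3.05, and with the longest transcript 3.82 and 3.79. The difference between the libraries was small under each length, so the choice of length, and not the spread between libraries, set the direction here. The deposited length of Stat92E, 41822 bases, is a sum, and its longest annotated transcript has 4200 bases, against 5055 for hop. Stat92E also had more counts than hop in both libraries. For any mix of its annotated transcripts, Stat92E therefore lies above hop per base.

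Among the inhibitors, Socs36E had 7902 counts in replicate 1 and 7546 in replicate 2, or 69.1 and 70.3 TPM. Its deposited level lay at the 72.3rd percentile of the genes that passed the minimum. SOCS proteins bind activated receptor complexes, and Socs36E is itself a known target of the pathway in fly tissues. The gene (chromosome 2L, 18138675 to 18152417, minus strand) has 3 transcripts from 1 start site. It stood at 131 ± 1.07 TPM with the exon-union length (SD, n = 2), above every other member, at the 86.4th percentile.

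Ptp61F, a tyrosine phosphatase that acts on the kinase and STAT, had 4300 counts in replicate 1 and 3967 in replicate 2, or 27.0 and 26.5 TPM. It spans 132765 bp of chromosome 3L (1342493 to 1475257, minus strand), of which 4.57% is exonic, and its 5 transcripts start at 4 sites spread over 125715 bp. Counts per gene do not tell which of these start sites was in use. The exon-union length gave 40.5 ± 0.660 TPM (SD, n = 2).

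Su(var)2-10, the fly PIAS protein, which attaches SUMO to its substrates and also acts in chromatin, had 4736 counts in replicate 1 and 4702 in replicate 2, or 12.7 and 13.5 TPM. The gene (chromosome 2R, 9116122 to 9122000, plus strand) is compact, with 14 transcripts and 18 distinct exons in 5879 bp. Its deposited length of 33688 bases is 6.69 times its exonic length, more than in 98.3% of the protein-coding genes that passed the minimum. With the exon-union length its level was 55.8 ± 1.99 TPM (SD, n = 2) and with the longest transcript 91.6 ± 3.23, against 13.1 ± 0.529 with the deposited length.

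In deposited TPM the order from high to low was dome, Socs36E, hop, upd3, Ptp61F, Stat92E, Su(var)2-10, et, upd2 and upd1. Neighbours in this order were taken as apart where neither the 2 libraries nor the 95% Poisson intervals overlapped. By this rule 8 of the 9 neighbouring pairs were apart, and Su(var)2-10 and et were not. From dome to upd2, the members with at least 10 counts covered a range of 18.3 times.

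With the exon-union length, the order was Socs36E, Stat92E, dome, Su(var)2-10, Ptp61F, hop, upd3, et, upd2 and upd1. Here too 8 of the 9 neighbouring pairs were apart, and the exception was Ptp61F and hop, at 1.03 times. The range from Socs36E to upd2 was 36.5 times. The deposited length was equal to the summed length of all annotated transcripts for all 10 members, and the 4 members with 1 transcript (upd2, upd3, dome and hop) kept their ratios to each other exactly, each falling to 0.638 of its deposited TPM through the rescaling to a fixed total. The 6 with 2 or more transcripts rose relative to these.

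Among the 36 pairs that the 9 detected members form, 23 had the same member higher in both libraries under all of the deposited, exon-union and longest-transcript lengths. Another 12 pairs turned round between lengths, 9 of them with Stat92E or Su(var)2-10. No pair with upd2 turned round. In the plot of the 3 gene lengths, the dashed lines of the single-transcript genes run parallel and are crossed by the lines of Stat92E, Su(var)2-10, Socs36E and Ptp61F. Which transcripts the cells use was not measured, and none of these lengths takes it into account. For genes with several transcripts, the deposited length is a sum that exceeds the length of each annotated transcript.

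**Figure D2:**
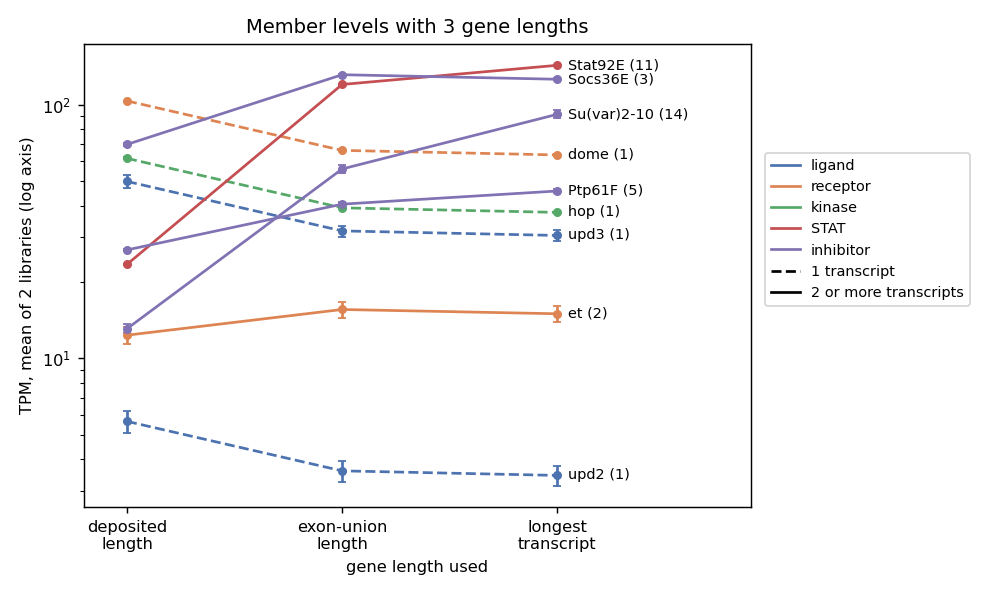
Mean TPM of both libraries (log axis, bars SD, n = 2) of the 9 detected components under 3 gene lengths (deposited, exon-union and longest transcript); numbers in brackets are annotated transcripts, and dashed lines mark genes with 1 transcript. Stat92E moves up across the plot to 143 TPM with the longest transcript, against 23.5 TPM with the deposited length, whereas dome moves down to 63.4 TPM, against 103 TPM.

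The members were then compared between the 2 libraries, to see how far each level was reproducible. An exact binomial test of the counts (two-sided, Benjamini-Hochberg over all 8846 genes with 10 or more counts in both libraries) compares these libraries and no conditions. It called 0 of the 9 members tested, against 1.51% of all genes tested (134 genes), so the members lay near the background. At an unadjusted p below 0.05, 1 of the 9 members passed, Su(var)2-10, with an unadjusted exact p = 0.0276 and an adjusted p = 0.385, against 10.1% of all genes tested (891 of 8846). With mitochondrial genes left out of the totals or with unstranded counts, 0 members passed at this unadjusted level. Su(var)2-10 was 0.956 times as high in replicate 1 as in replicate 2, after scaling to library totals.

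The intervals of these ratios are calculated from the counts alone, so by construction they are narrower for members with more counts. The log2 ratio of replicate 1 to replicate 2 was 0.01 for Stat92E, with a 95% interval from -0.03 to 0.05 that covers counting error only, and -0.18 for upd2, with an interval from -0.56 to 0.19. Both intervals include 0. The plot of library differences shows the same narrowing of the intervals at dome, hop, Stat92E, Socs36E, Su(var)2-10 and Ptp61F.

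**Figure D3:**
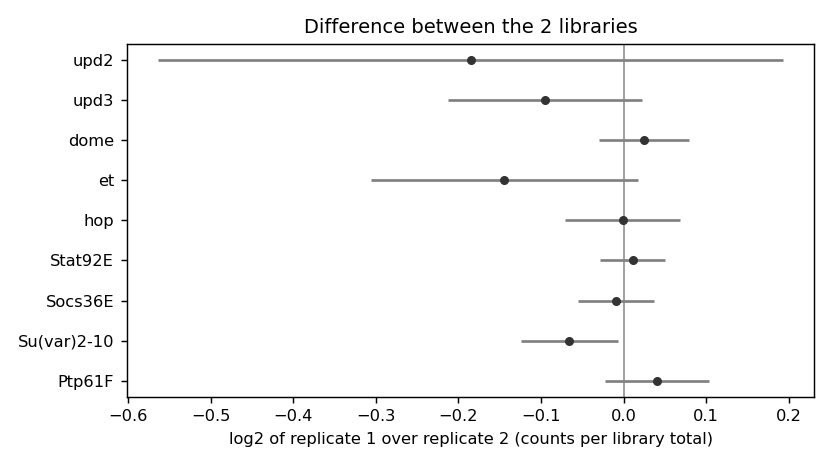
Log2 ratio of replicate 1 to replicate 2 in counts per library total for the 9 components with 10 or more counts in both libraries; bars are exact 95% intervals from counting error. The interval excludes 0 at Su(var)2-10, with a log2 ratio of -0.07, and is widest at upd2, from -0.56 to 0.19.

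The kit keeps the strand, so reads on the opposite strand of each member could be counted. Over the 7782 genes with at least 100 counts on both strands together in each library, the median opposite-strand share was 1.46%, with quartiles of 0.918% and 4.20%. All members but upd1 passed this minimum, and 4 of these 9 lay above the median. Stat92E had a share of 0.715% in replicate 1 and 0.807% in replicate 2, below the lower quartile. Socs36E had the highest share of the members, 324 of 8226 counts in replicate 1 (3.94%, exact binomial 95% interval from 3.53% to 4.38%) and 332 of 7878 in replicate 2 (4.21%, from 3.78% to 4.68%). The intervals of Socs36E lay above those of upd3, dome, hop, Stat92E, Su(var)2-10 and Ptp61F in both libraries. They overlapped those of et in both libraries and that of upd2 in replicate 1.

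An opposite-strand gene, lncRNA:CR44478, lies within Socs36E from 18145098 to 18145499, with 52 counts in replicate 1 and 36 in replicate 2, but its exon shares 0 bases with the exons of Socs36E. Its part in the opposite-strand reads was not tested. The intervals of the 2 libraries did not overlap for 1 of the 9 members, against 1.04% of the 7782 genes (81 genes). This was Su(var)2-10, at 1.09% (0.812% to 1.42%) in replicate 1 and 0.445% (0.275% to 0.679%) in replicate 2. It was singled out after its values were seen, and the difference was not tested. The strand-matched counts used for TPM exclude these reads. The convergent gene Zw overlaps the 3' end of et by 42 exonic bases. In unstranded counting, where read pairs in such an overlap are left out, et had 612 and 636 counts, close to the strand-matched 615 and 645.

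**Figure D4:**
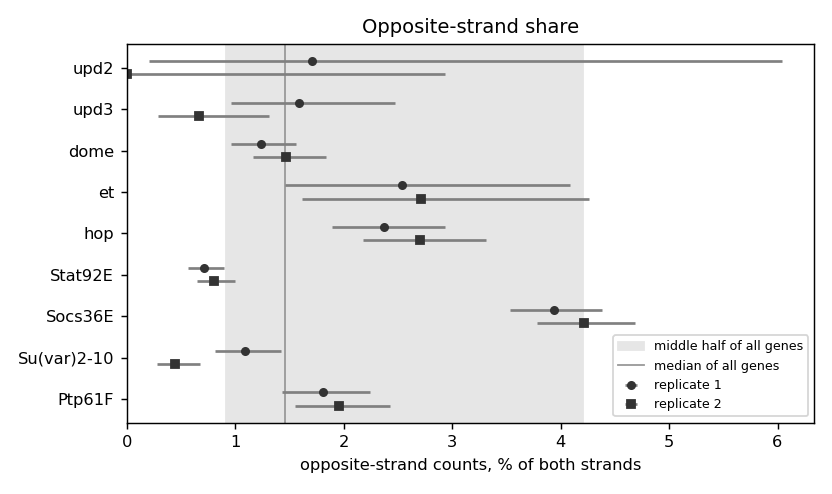
Opposite-strand counts as a percentage of both strands for the 9 components with at least 100 counts on both strands together in each library, in replicate 1 (circles) and replicate 2 (squares), with exact 95% binomial intervals; the line is the median of all genes that passed the same minimum, 1.46%, and the shaded band runs between their quartiles. The points of Socs36E, at 3.94% and 4.21%, lie farthest to the right.

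Further regulators of the pathway were taken from a list of 12 genes. All 12 had 10 or more counts in both libraries, against 49.7% of all genes, and their median deposited TPM was 101, against 29.8 over all genes that passed this minimum. These medians were 76.9 and 34.9 with the exon-union length. The highest were Sumo, the modifier that PIAS proteins attach to their substrates, at 1458 ± 44.3 TPM (SD, n = 2), the gene of heterochromatin protein HP1a (FBgn0003607), at 503 ± 3.56 TPM (SD, n = 2), and lwr, the SUMO conjugating enzyme, at 303 TPM in replicate 1 and 310 TPM in replicate 2. They kept this order with the exon-union length, at 1792, 608 and 512 TPM. These genes act in many processes beside this pathway. Further SOCS genes were also detected. Socs44A, with 1 transcript, had 112 and 107 TPM, and Socs16D, with 2, had 26.3 and 27.4 TPM. ken, which represses a subset of STAT targets, had 72.4 and 74.0 TPM.

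Of 14 genes reported as induced by the pathway in fly tissues, 7 had 10 or more counts in both libraries and 7 did not, a share near that of all genes, 49.7%. Their median deposited TPM was 0.729, against 0.646 over all genes of the table. With the exon-union length these medians were 0.465 and 0.550, so the side turned with the length. The highest in deposited TPM were the transcription factor gene zfh1, at 82.9 ± 1.73, vir-1, which is induced by viruses, at 63.8 ± 0.541, and the thioester protein gene Tep2, at 37.1 ± 1.27 (SD, n = 2). The order turned with the exon-union length, which gave 182 ± 0.659 TPM for vir-1, 127 ± 2.03 for zfh1 and 102 ± 2.97 for Tep2 (SD, n = 2). chinmo, a transcription factor of stem cells of the testis, had 17.7 and 17.1 deposited TPM, and CG13559 had 27.9 and 27.7. These 5 genes also passed a minimum of 100 counts, as did Socs36E among the members.

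The stress-induced Turandot genes stood at the other end. TotA had 16 counts in replicate 1 and 19 in replicate 2, or 2.50 and 3.16 TPM, and no other of the 7 Turandot genes reached 10 counts. TotB, TotF and TotX had 0 counts in both libraries, which allows a level of up to 0.0897 CPM (counts scaled to library size) in replicate 1 and 0.0946 CPM in replicate 2, taking 3 counts as the upper limit for a count of 0 and counting error only. Tep1 had 14 and 33 counts, so its mean TPM of 0.527 depends on the library, at 0.300 in replicate 1 and 0.754 in replicate 2. Listericin, an antibacterial peptide gene, had 5 and 4 counts. The listed targets thus held both genes above the median of detected genes, 29.8 TPM, such as zfh1, and genes with no count. All of them can be driven by other pathways too, and whether STAT acts on them in these cells was not measured.

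**Figure D5:**
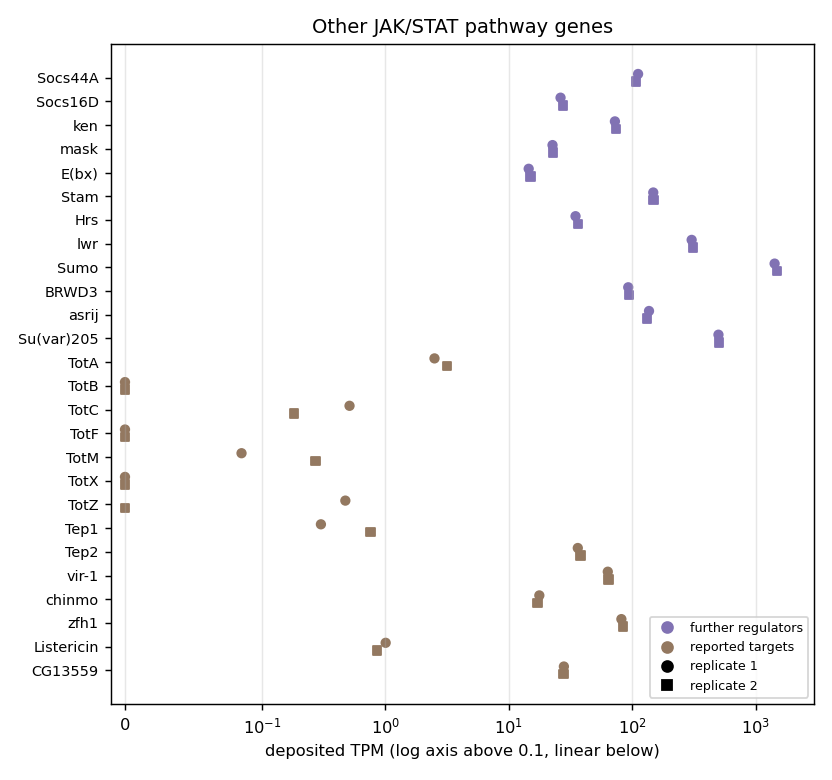
Deposited TPM of the 12 further regulators (purple) and the 14 reported targets (brown) in replicate 1 (circles) and replicate 2 (squares), on an axis that is logarithmic above 0.1 and linear below. All regulators lie at or above 14.5 TPM, whereas the targets run from 0 counts (TotB, TotF and TotX) to 81.7 and 84.2 TPM (zfh1).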

How the data were processed

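By the paper's methods, RNA-seq libraries were prepared with poly(A) enrichment and a stranded kit, although the names of the 2 DMSO control libraries read total RNA. Per the methods and the labels, STAR 2.7.1a aligned the read pairs to dm6. The authors deposited counts of read pairs per gene in 3 strand columns, and a combined table that adds a gene length and the TPM. The deposited counts in the table equal the column of the kit's strand for 100% of genes. Rows that name no gene (unmapped, multimapping, outside genes or ambiguous; 21.6% and 21.0% of read pairs) were left out of library totals. The last column of the table is the authors' mean TPM of both libraries.

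Symbols came from a table of FlyBase identifiers, which matched all 10 members, and coordinates, transcripts and exons from Ensembl release 115 (BDGP6.54, the dm6 assembly). In the fixed lists, smt3, Brwd3, arj and nos were read as Sumo, BRWD3, asrij and nanos. The members and lists were chosen with earlier results of these data known. Named were all members, the 3 highest genes and those with 0 counts of each list, TotA, and genes overlapping or next to members; Socs44A, Socs16D, ken, chinmo, CG13559, Tep1 and Listericin were added after their values were seen.

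Detection required at least 10 counts in each library. TPM was recalculated from unstranded counts, with the exon-union length (each exonic base taken once) and with the length of the longest transcript. The libraries were compared by an exact binomial test with Benjamini-Hochberg adjustment, with TMM scaling from edgeR 4.0.16 in R 4.3.3 as an alternative. The test was tried on simulated counts that held counting error only. Such counts cannot show how it behaves where libraries differ by more than counting error. Other steps used Python 3.11.15 with pandas 2.3.3, scipy 1.17.1 and matplotlib 3.10.9. Intervals are 95% and cover counting error only. Promoter motifs of the members were planned but not analysed here.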

Additional observations from a re-analysis of the deposited data

How the results depend on the processing

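The median TPM of the 10 members was 25.1 as reported, 25.8 with unstranded counts, 39.9 with the exon-union length and 41.6 with the longest transcript. The log2 ratio of dome to et was 3.07 as reported, and 2.09 and 2.08 with these lengths. The log2 ratio of Stat92E to hop was -1.39 as reported and -1.41 with unstranded counts, and it changed sign to 1.62 with the exon-union length and to 1.93 with the longest transcript. These lengths moved 6 and 5 members to another rank. As 4 members have 1 transcript, their own length stayed the same, and their TPM changed through the rescaling alone.

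The number of members called between the libraries was 0 under all 4 alternatives of that test, and the numbers of detected members, regulators and targets stayed within 1.5 times at minimums of 1 and 100 counts (9 or 10, 12, and 5 to 10 genes). Leaving out either replicate left the order of the members and the numbers of detected members, regulators and targets as they were. No paired analysis was possible because the design has a single group. Promoter motifs, with their alternative window, were not run, since no sequence was used here. With 2 libraries an SD rests on 2 values, and upd1 has too few counts for a level. The recount of all genes called between libraries was chosen after seeing the data (106 to 134 genes).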

Other observations

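The introns of Ptp61F hold 19 other annotated genes, 9 of them protein-coding, 9 tRNA genes and 1 noncoding gene, and none shares an exonic base with Ptp61F. Of these 19, only rho and CG9166 had 10 or more counts in both libraries. rho, a protease that releases EGF receptor ligands, had 754 counts in each library (15.0 TPM with the exon-union length), and CG9166 had 625 counts in replicate 1 and 563 in replicate 2 (21.8 TPM). Both lie on the strand opposite to Ptp61F, whose opposite-strand share was 1.80% and 1.95%. ru, a relative of rho that also lies within Ptp61F, had 13 and 8 counts.

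The X chromosome carries 6 of the 10 listed components (upd1, upd2, upd3, dome, et and hop). These are not 6 separate places, as the upd genes lie within 68638 bp and dome and et are 169 bp apart. The share of all genes on this chromosome is not given here, so no excess can be read from the count. The genes with several annotated start sites were upd1 with 3, Stat92E with 2, Su(var)2-10 with 2 and Ptp61F with 4, and the other members have 1.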
